A study of Homo sapiens with 4 samples.

Results

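Expression of 10 genes was followed by single-cell RNA sequencing in BT474, an established human breast cancer line that carries the estrogen receptor and an amplified HER2 gene. They included the FOXO transcription factors FOXO1, FOXO3 and FOXO4. A further FOXO factor, FOXO6, was not among the 10 and is given with their paralogs below. The other 7 were genes known as FOXO targets or as brakes on growth and division: HBP1, CCNG2, BTG1, CITED2, PDCD4, SESN1 and SESN3. The 10 were chosen by name, with earlier results of these data known. All 10, taken by symbol, were among the 33538 genes of the count matrix. There were 4 groups, each of 1 library: fulvestrant + neratinib, neratinib alone, fulvestrant alone, and DMSO, the vehicle. Fulvestrant was used at 100 nM and neratinib at 200 nM, both alone and together. Treatment lasted 4 h in every group. Neratinib is an irreversible inhibitor of the HER2 family of receptor kinases, and fulvestrant is an estrogen receptor antagonist that also leads to the receptor's degradation. The series title names resistance to combined blockade of both receptors. BT474 is a single cell line, and with 1 library per group no difference below has a replicate check, so no test between groups was made.

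FOXO proteins are transcription factors that the PI3K and AKT kinases hold in check. AKT phosphorylates FOXO proteins, which then bind 14-3-3 proteins and are kept in the cytoplasm. When AKT signalling falls, FOXO proteins enter the nucleus and activate genes of cell cycle arrest, stress resistance, autophagy and apoptosis. HER2 with its partner HER3 is a strong activator of PI3K in HER2-amplified breast cancer cells. That control acts on the protein, so transcript levels of the FOXO genes do not measure FOXO activity.

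After filtering, 3876, 3507, 3485 and 4301 cells were kept with fulvestrant + neratinib, neratinib, fulvestrant and DMSO. They were barcodes with at least 5000 UMIs (unique molecular identifiers, each marking a captured transcript) and at least 500 genes. The libraries held between 82967775 and 102504452 UMIs in these cells, with medians of 22007 to 23010 UMIs per cell. The median mitochondrial share of UMIs was 21.1% in both neratinib libraries, against 16.7% with fulvestrant and 16.2% in DMSO. Of the 15169 cell barcodes, 23 were also found in another library. All 9 epithelial and HER2-amplicon markers of BT474 were detected in every library, with summed levels of 5203 and 5854 CPM (UMIs per 1000000 UMIs of the library's cells) in the libraries with fulvestrant + neratinib and neratinib, against 7838 and 8108 CPM with fulvestrant and DMSO. Of the 6 fibroblast markers, 3 to 5 were at 0 in each library and COL1A1 made up nearly all of their 10.2 to 12.4 CPM. The 6 immune markers summed to 0.956 to 1.15 CPM and the 4 endothelial markers to 1.78 to 2.49 CPM. The keratins KRT8, KRT18 and KRT19 carried most of the lower sum, while GRB7 was at 587 and 595 CPM, against 260 and 218 CPM, and CDH1 at 180 and 182 CPM, against 164 and 156 CPM, in the same order. What part these marker levels have in the results was not tested.

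FOXO proteins recognise DNA with the core GTAAACA, and 3 of the 10 genes held that core in a promoter window reaching from 250 bases before the transcription start to 50 after it. All 10 genes matched the RefSeq promoter table (GRCh38.p14), with 18 windows between them because some have several starts. The core, searched on both strands, was in 3 of these 18 windows and in 3.42% of all 35116 windows of the table. The longer GTAAACAA, which contains the core, was in 1 of the 18, that of BTG1, and in 0.954% of all windows. The windows of HBP1, BTG1 and FOXO4 are shown because they are the ones with the core. These 3 genes rose with neratinib, but so did FOXO1, FOXO3, CCNG2, CITED2 and SESN3, whose windows lack it. A link between the core and the drug ratios was not tested. The first lines below give the 250 bases before the start for HBP1 (chr7:107168753-107169002, plus strand) and BTG1 (chr12:92145847-92146096, minus strand), and the last gives 29 bases around the core for FOXO4 (chrX:71095863-71095891, plus strand). All are written 5′ to 3′ in the direction of the gene, with the core in capitals.
HBP1: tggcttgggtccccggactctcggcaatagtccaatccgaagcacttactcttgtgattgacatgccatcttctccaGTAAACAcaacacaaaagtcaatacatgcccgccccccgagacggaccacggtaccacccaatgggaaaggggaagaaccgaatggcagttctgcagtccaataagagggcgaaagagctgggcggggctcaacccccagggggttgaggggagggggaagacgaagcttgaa
BTG1: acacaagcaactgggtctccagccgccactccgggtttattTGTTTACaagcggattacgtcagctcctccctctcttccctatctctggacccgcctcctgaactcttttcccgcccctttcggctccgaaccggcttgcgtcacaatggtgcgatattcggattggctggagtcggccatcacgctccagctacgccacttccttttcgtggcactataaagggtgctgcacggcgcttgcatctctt
FOXO4: cccggcgagtgGTAAACAgagacgtcagg
The core began 173 bases before the start in HBP1. In BTG1 it began 209 bases before the start and lay on the opposite strand, so that the reverse complement TGTTTAC is read in the gene's direction. In FOXO4 it began 24 bases after the start. A match is a description of letters, not of a bound site, and its absence from the other windows says only that these letters are not there.

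Neratinib was accompanied by higher transcript levels of most of the 10 genes, with or without fulvestrant, whereas none of the measured ones passed 1.5-fold with fulvestrant. A gene counted as higher or lower when the ratio of its CPM between 2 libraries was at least 1.5-fold and the 95% interval of that ratio, an exact Poisson interval that covers counting error only, lay off 0 on the log2 scale. It counted as measured with a mean of at least 1 CPM over the 4 libraries, which 12136 genes and 9 of the 10 reached. FOXO4 fell short of that minimum, and FOXO1, at 0.966 CPM in DMSO, passed it through its levels in the other libraries. In neratinib against DMSO 7 of the 9 measured genes were higher and 0 lower, where 7.03% of all measured genes were higher and 15.1% lower. In fulvestrant + neratinib against fulvestrant, a pair of libraries with none in common with the first, 7 of 9 were higher and 0 lower, where 7.26% of all measured genes were higher and 14.6% lower. The same 7 genes rose in both pairs: FOXO1, FOXO3, HBP1, CCNG2, BTG1, CITED2 and SESN3. FOXO4 was past the same fold in both, which made 8 of the 10. Because the 10 were chosen with earlier results of these data known, these counts are not an independent check.

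The median log2 ratio of the 9 measured genes was 0.95 in neratinib against DMSO and 1.12 in fulvestrant + neratinib against fulvestrant, and that of all measured genes was -0.16 and -0.15. Scaling by the median of ratios in place of the total count raised every log2 ratio of the first pair by 0.16 and of the second by 0.15. In fulvestrant against DMSO 0 of 9 were higher and 0 lower, where 0.0989% of all measured genes were higher and 0.569% lower. In fulvestrant + neratinib against neratinib 0 of 9 were higher and 0 lower, where 0.0577% were higher and 0.634% lower. The 9 genes had medians of 0.15 and 0.11 in these 2 fulvestrant pairs, beside 0.00 and 0.01 for all measured genes. In fulvestrant + neratinib against DMSO, which shares libraries with the other pairs, 7 of 9 were higher and 0 lower, where 7.94% were higher and 15.7% lower.

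**Figure D1:**
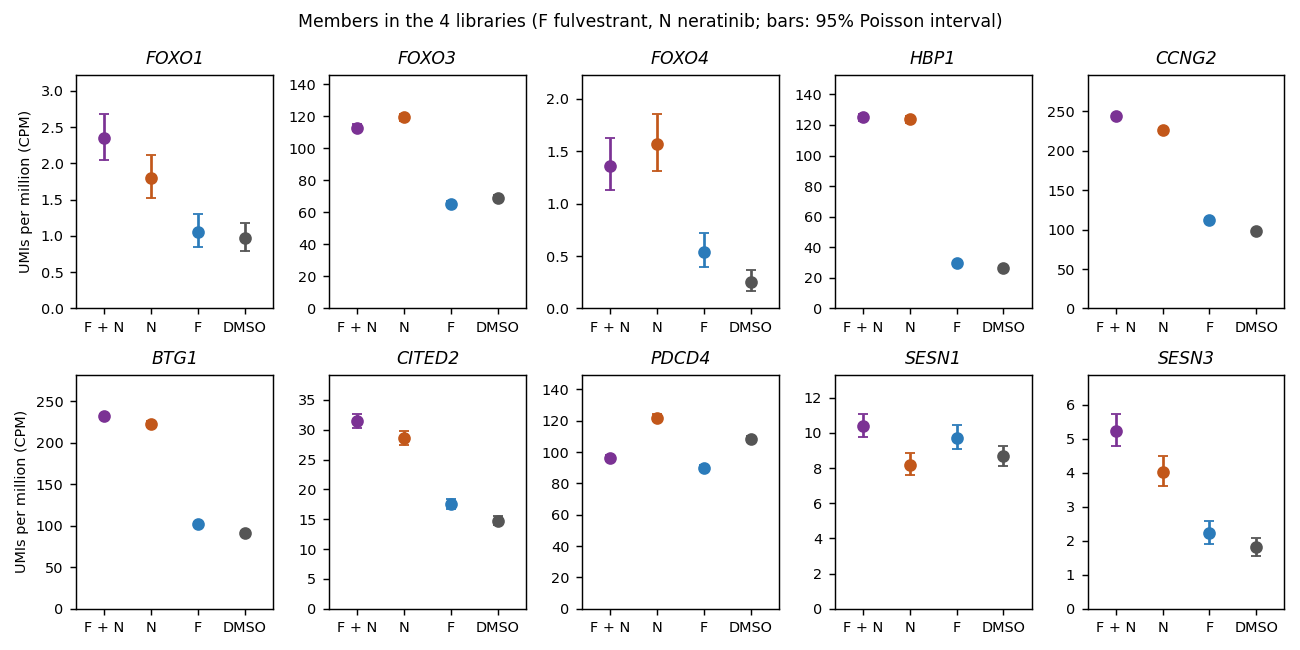
Level of each of the 10 genes (members) in CPM in the 4 libraries, 1 panel per gene with its own vertical axis from 0. Points are library values and bars their exact 95% Poisson intervals. HBP1 stood at 125 and 124 CPM with fulvestrant + neratinib (F + N) and neratinib (N), against 29.5 and 26.8 CPM with fulvestrant (F) and DMSO.

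Among the transcription factors, FOXO3 (ENSG00000118689), which is broadly expressed and activates arrest and autophagy genes, was at 113 CPM with fulvestrant + neratinib and 119 CPM with neratinib, against 65.4 CPM with fulvestrant and 69.1 CPM in DMSO. Both neratinib libraries lay above both others. The log2 ratio was 0.79 [0.74, 0.83] for neratinib against DMSO and 0.79 [0.74, 0.84] for fulvestrant + neratinib against fulvestrant, a fold of 1.73 in each pair, the smallest among the 7 genes that rose. The fulvestrant pairs gave -0.08 [-0.13, -0.03] and -0.08 [-0.12, -0.04].

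FOXO1 (ENSG00000150907), best known for its part in insulin signalling, had a low count in these cells. It was at 2.35 CPM with fulvestrant + neratinib (214 UMIs) and 1.80 CPM with neratinib (149 UMIs), against 1.05 CPM with fulvestrant (88 UMIs) and 0.966 CPM in DMSO (99 UMIs). FOXO1 rose in both neratinib pairs, by log2 ratios of 0.89 [0.52, 1.28] and 1.16 [0.79, 1.53], with wide intervals. FOXO4 (ENSG00000184481), the X-linked member of the family, was lower still, at 1.36 and 1.57 CPM with fulvestrant + neratinib and neratinib (124 and 130 UMIs), against 0.538 and 0.254 CPM with fulvestrant and DMSO (45 and 26 UMIs). Its log2 ratio was 2.63 [2.01, 3.29] for neratinib against DMSO and 1.34 [0.84, 1.87] for fulvestrant + neratinib against fulvestrant. These intervals do not overlap, and the DMSO library, which held the fewest UMIs of FOXO4, stood below the fulvestrant library by 1.08 [0.36, 1.84]. That difference rests on few UMIs and turned to -0.50 [-2.72, 1.47] when each cell was thinned to 5000 UMIs.

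The highest ratios among the measured genes were those of HBP1 (ENSG00000105856), an HMG-box transcriptional repressor that slows entry into S phase. HBP1 was at 125 CPM with fulvestrant + neratinib and 124 CPM with neratinib, against 29.5 CPM with fulvestrant and 26.8 CPM in DMSO. The groups with and without neratinib were far apart and close together within themselves. The fold was 4.62 for neratinib against DMSO, a log2 ratio of 2.21 [2.15, 2.27], and 4.25 for fulvestrant + neratinib against fulvestrant, a log2 ratio of 2.09 [2.02, 2.15]. Ranked from the top among 12136 measured genes, HBP1 was number 25 in the first pair and number 31 in the second. The fulvestrant pairs gave 0.14 [0.06, 0.22] and 0.02 [-0.02, 0.06].

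CCNG2 (ENSG00000138764) encodes cyclin G2, an atypical cyclin that is linked to cell cycle arrest and not to its progress. It was at 244 CPM with fulvestrant + neratinib and 226 CPM with neratinib, against 112 CPM with fulvestrant and 97.6 CPM in DMSO. CCNG2 rose by a log2 ratio of 1.21 [1.18, 1.25] in neratinib against DMSO and of 1.12 [1.08, 1.15] in fulvestrant + neratinib against fulvestrant. BTG1 (ENSG00000133639), an antiproliferative protein that binds the CCR4-NOT deadenylase, rose by a like amount. It was at 232 and 222 CPM with fulvestrant + neratinib and neratinib, against 102 and 91.5 CPM with fulvestrant and DMSO. Its log2 ratios were 1.28 [1.24, 1.32] and 1.18 [1.15, 1.22] in the neratinib pairs. In fulvestrant against DMSO, CCNG2 gave 0.20 [0.16, 0.25] and BTG1 0.15 [0.11, 0.20], in both cases under the 1.5-fold limit.

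CITED2 (ENSG00000164442), a coregulator that binds CBP and p300 and competes with the hypoxia factor HIF-1α for them, was at 31.5 CPM with fulvestrant + neratinib and 28.6 CPM with neratinib, against 17.5 CPM with fulvestrant and 14.8 CPM in DMSO. It rose by log2 ratios of 0.95 [0.86, 1.05] and 0.84 [0.75, 0.94] in the neratinib pairs, and the fulvestrant pairs gave 0.25 [0.14, 0.35] and 0.14 [0.06, 0.22]. PDCD4 (ENSG00000150593), a tumour suppressor that inhibits the translation helicase eIF4A, did not pass 1.5-fold in any pair. PDCD4 was at 96.0 CPM with fulvestrant + neratinib and 122 CPM with neratinib, against 89.8 CPM with fulvestrant and 108 CPM in DMSO. Here the libraries split by fulvestrant, both with it lying below both without it. The log2 ratio was -0.27 [-0.31, -0.23] for fulvestrant against DMSO and -0.35 [-0.39, -0.30] for fulvestrant + neratinib against neratinib, short of 1.5-fold in each. Among 12136 measured genes this placed PDCD4 at number 370 from the bottom in the first pair and number 234 in the second. The neratinib pairs gave 0.17 [0.13, 0.21] and 0.10 [0.05, 0.14].

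Sestrins are stress-induced proteins that restrain the mTORC1 kinase by way of the GATOR complexes, and of the 2 measured here SESN3 passed 1.5-fold with neratinib and SESN1 did not. SESN3 (ENSG00000149212), the sestrin best known as a FOXO target, was at 5.24 CPM with fulvestrant + neratinib and 4.03 CPM with neratinib, against 2.22 CPM with fulvestrant and 1.80 CPM in DMSO. It rose by log2 ratios of 1.16 [0.89, 1.42] and 1.24 [0.99, 1.49] in the neratinib pairs. SESN1 (ENSG00000080546), a sestrin also known as a p53 target, was at 10.4 CPM with fulvestrant + neratinib and 8.20 CPM with neratinib, against 9.73 CPM with fulvestrant and 8.68 CPM in DMSO. The neratinib pairs gave SESN1 log2 ratios of -0.08 [-0.23, 0.06] and 0.10 [-0.04, 0.23], with both intervals across 0, and the first turned to 0.08 under median-of-ratios scaling. In fulvestrant + neratinib against neratinib both sestrins lay above 0, SESN1 at 0.34 [0.20, 0.49] and SESN3 at 0.38 [0.17, 0.59], short of 1.5-fold. In fulvestrant against DMSO, SESN1 gave 0.16 [0.03, 0.30].

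**Figure D2:**
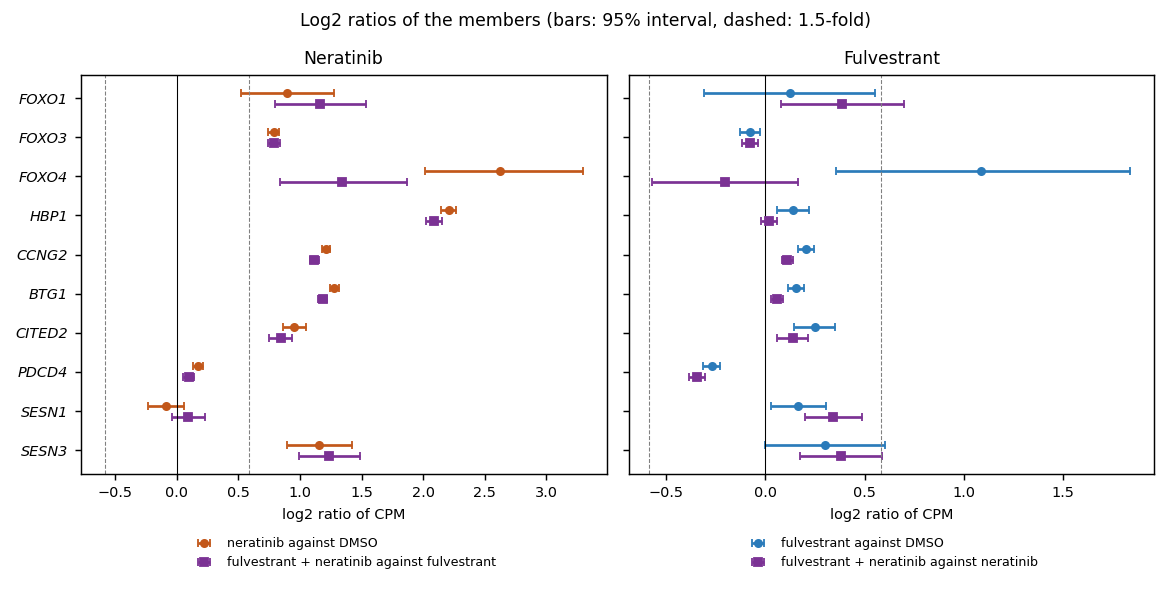
Log2 ratio of CPM of the 10 genes, in the neratinib pairs (left) and the fulvestrant pairs (right). Points are ratios, bars 95% Poisson intervals and dashed lines 1.5-fold. On the left PDCD4 and SESN1 alone lie within the dashed lines, and on the right FOXO4 in fulvestrant against DMSO, at 1.08, is the only point outside them.

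Whether the drugs together gave what their separate log2 changes add up to was read from the departure from additivity, the log2 CPM with fulvestrant + neratinib minus that with neratinib minus that with fulvestrant plus that in DMSO. The departure was small for the well-measured genes: -0.12 [-0.21, -0.03] for HBP1, -0.09 [-0.14, -0.05] for CCNG2, -0.09 [-0.15, -0.04] for BTG1 and -0.07 [-0.13, -0.02] for PDCD4. For FOXO3 it was 0.00 [-0.06, 0.06]. The interval crossed 0 for FOXO1, CITED2, SESN1 and SESN3. FOXO4 stood apart at -1.29 [-2.07, -0.51], with 26 UMIs in DMSO behind it. The intervals cover counting error only and hold no variation between cultures.

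Cells were next divided by cell cycle phase, called from the transcripts of 43 S phase and 54 G2M genes, none of which is among the 10 genes. The share of cells called S was 17.0% with fulvestrant + neratinib and 15.1% with neratinib, against 22.4% with fulvestrant and 20.4% in DMSO, and the share called G1 was 58.4% and 56.8% against 54.0% and 53.7%. Calls are a cut through a score, and 9.60%, 8.47%, 8.09% and 7.23% of cells lay within 0.05 of a boundary in the same order of libraries. In neratinib against DMSO, 8 of 10 measured genes were higher among G1 cells, where 8.46% of all measured genes were higher and 15.2% lower. In S cells 6 of 9 were higher, where 6.93% of all were higher and 18.7% lower. In G2M cells 7 of 9 were higher, where 5.98% of all were higher and 15.3% lower. In fulvestrant + neratinib against fulvestrant the counts were 8 of 10 in G1 cells, 7 of 9 in S cells and 6 of 9 in G2M cells, where 8.83%, 6.84% and 6.03% of all measured genes were higher and 14.8%, 17.2% and 14.6% lower. Measured is counted anew in each phase, and 0 of these genes was lower in any phase of either pair. The minimum was met only through the neratinib libraries by FOXO4 in G1, SESN3 in S and FOXO1 in G2M cells. Each was under 1 CPM with fulvestrant and in DMSO. The filter thus fixed in advance that these genes were higher with neratinib on average, though not each call. Without these genes the counts in G1, S and G2M cells were 7 of 9, 5 of 8 and 6 of 8 in neratinib against DMSO and 7 of 9, 6 of 8 and 5 of 8 in fulvestrant + neratinib against fulvestrant.

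HBP1 rose by log2 ratios of 2.04 [1.95, 2.12], 2.41 [2.25, 2.57] and 2.33 [2.21, 2.44] in the G1, S and G2M cells of neratinib against DMSO. Its level was lowest in S cells of each of the 4 libraries, at 103 and 99.1 CPM with fulvestrant + neratinib and neratinib, against 18.5 and 18.6 CPM with fulvestrant and DMSO. BTG1 had nearly even ratios, 1.25, 1.24 and 1.33 in the same phases. CITED2 had its highest ratio in G1 cells, 1.09 [0.96, 1.22], with 0.83 [0.60, 1.06] in S cells and 0.71 [0.54, 0.89] in G2M cells.

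Apart from the low-count genes FOXO4 and SESN3, CCNG2 had the most uneven ratios over the phases. In G1 cells it was at 214 and 199 CPM with fulvestrant + neratinib and neratinib, against 132 and 118 CPM with fulvestrant and DMSO. In S cells it was at 217 and 204 CPM, against 72.3 and 61.7 CPM, and in G2M cells at 304 and 274 CPM, against 117 and 94.5 CPM, in the same order. CCNG2 was therefore lowest in S cells without neratinib, while with neratinib its S level was near its G1 level and its G2M level was the highest. Its log2 ratio in neratinib against DMSO was 0.75 [0.70, 0.80] in G1, 1.72 [1.63, 1.82] in S and 1.54 [1.48, 1.59] in G2M cells. In fulvestrant + neratinib against fulvestrant, with no library shared, it was 0.70, 1.59 and 1.38. The log2 ratio of CCNG2 in G2M against G1 cells was 0.51 and 0.46 with fulvestrant + neratinib and neratinib, against -0.18 and -0.32 with fulvestrant and DMSO. Without the cells near a phase boundary it was 0.54 and 0.50, against -0.17 and -0.33.

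SESN3 had its highest level in the G1 cells of each of the 4 libraries. In G1 cells it was at 7.20 and 5.80 CPM with fulvestrant + neratinib and neratinib, against 3.61 and 2.85 CPM with fulvestrant and DMSO. In S cells it was at 2.70 and 2.41 CPM, against 0.843 and 0.475 CPM, from 47 and 34 UMIs against 18 and 11. SESN1, FOXO1 and FOXO3 also had higher levels in G1 than in G2M cells of each library, with G2M against G1 log2 ratios of -0.33 to -0.50 for FOXO3, -0.42 to -0.58 for SESN1 and -0.66 to -0.87 for FOXO1. For FOXO1 the interval crossed 0 in the fulvestrant and DMSO libraries. HBP1, at -0.18 to -0.47, and CITED2, at -0.07 to -0.69, also lay below 0 in each library, as did FOXO4. With fulvestrant the intervals of CITED2 and FOXO4 crossed 0. PDCD4 differed by library: its G2M against G1 log2 ratio was 0.15 and 0.26 with fulvestrant + neratinib and neratinib, against -0.10 and -0.11 with fulvestrant and DMSO. The fulvestrant difference of PDCD4 was present in each phase, at -0.30, -0.19 and -0.29 in the G1, S and G2M cells of fulvestrant against DMSO.

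**Figure D3:**
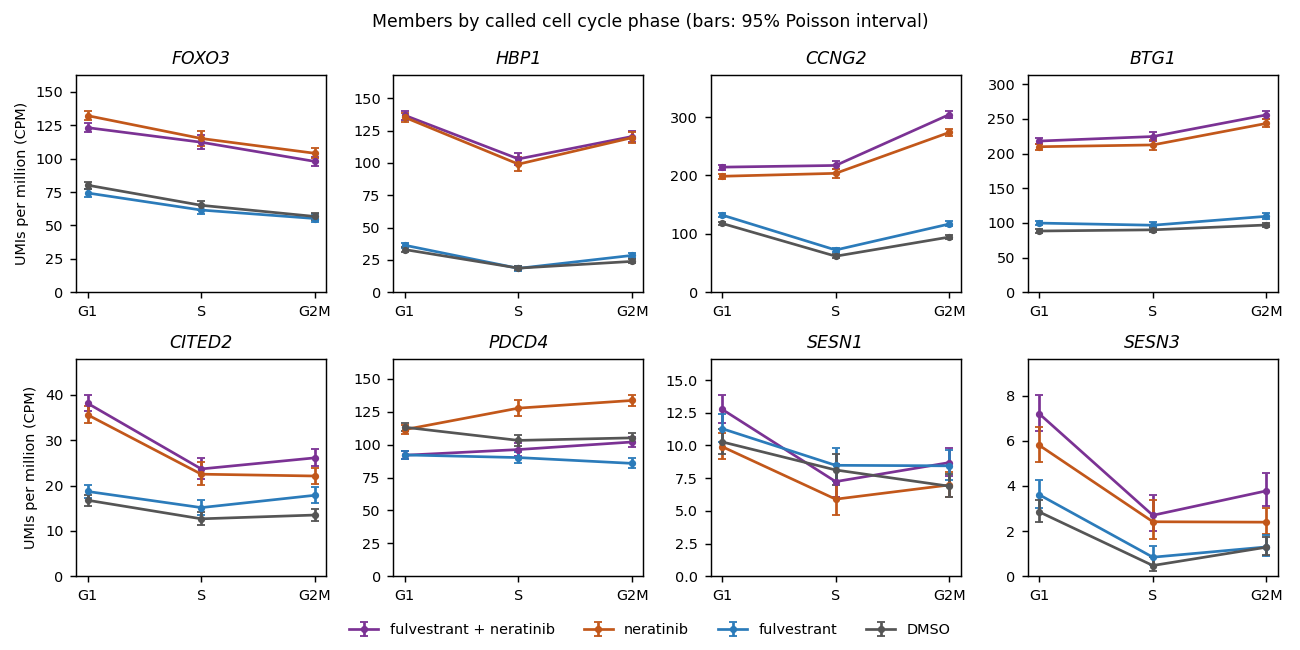
Level in CPM of 8 of the 10 genes in cells called G1, S and G2M (horizontal axis) in each library; lines join the phases of a library and bars are 95% Poisson intervals. CCNG2 climbs to 304 and 274 CPM in G2M cells with fulvestrant + neratinib and neratinib, against 117 and 94.5 CPM with fulvestrant and DMSO. FOXO1 and FOXO4 are left out for their low counts.

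Because the mitochondrial share of UMIs moved with neratinib, the ratios were also read among cells of similar share, in bands of under 15%, 15 to 20%, 20 to 25% and over 25%. HBP1 gave log2 ratios of 2.23, 2.23, 2.09 and 2.44 in these bands for neratinib against DMSO and 2.04, 2.14, 2.07 and 2.14 for fulvestrant + neratinib against fulvestrant. BTG1 gave 1.14, 1.31, 1.24 and 1.30 in the first pair, and FOXO3 0.58, 0.72, 0.74 and 0.65. CCNG2 gave 1.37, 1.27, 0.99 and 0.99 in the first pair and 1.46, 1.17, 0.97 and 1.06 in the second, with the larger ratios in the bands of lower share. The ratios of these 4 genes were thus above 0 within every band of both pairs, and those of CITED2 lay between 0.63 and 1.58. The genes of low count were less certain. SESN3 gave 0.20 [-1.01, 1.23] and FOXO1 0.57 [-0.86, 1.77] in the lowest band of fulvestrant + neratinib against fulvestrant, and the interval of FOXO1 also crossed 0 in the lowest band of the first pair and in the highest band of both. The lowest band held 128 neratinib cells and 1401 DMSO cells, and the highest 567 and 170.

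The genes that rose were also found in a larger share of single cells. After each cell was thinned to 5000 UMIs, HBP1 had a UMI in 46.0% and 45.6% of cells with fulvestrant + neratinib and neratinib, against 14.5% and 12.3% with fulvestrant and DMSO. For CCNG2 the shares were 66.4% and 63.6%, against 42.2% and 37.7%, and for BTG1 67.0% and 65.4%, against 37.4% and 35.5%. If UMIs of BTG1 fell on cells evenly, as in a Poisson distribution of the same mean, its shares would be 68.5% and 66.7%, against 39.3% and 37.0%. The variance of the thinned counts divided by their mean, which is 1 in a Poisson distribution, was between 0.99 and 1.19 for all 10 genes in the 4 libraries. Unthinned, HBP1 averaged 2.94 and 2.92 UMIs per cell, against 0.707 and 0.638. Free RNA, read in barcodes of 10 to 100 UMIs, held 0.00805 and 0.00609 HBP1 UMIs per barcode, against 0.00183 and 0.00164, in the same order. No cell type that should lack HBP1 was in the samples to serve as a background.

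A cell thinned to 5000 UMIs showed on average 2.83 and 2.84 of the 10 genes with fulvestrant + neratinib and neratinib, against 1.71 and 1.71 with fulvestrant and DMSO. At least 3 of the 10 were found in 59.7% (95% Clopper-Pearson interval 58.2 to 61.3) and 60.9% (59.3 to 62.5) of cells, against 22.6% (21.3 to 24.1) and 22.9% (21.6 to 24.1). None was found in 2.24% and 2.37% of cells, against 13.4% and 13.7%. The 2 libraries with neratinib lay close together, and so did the 2 without it. Within a library, the thinned UMIs of any 2 of the genes were all but unrelated from cell to cell: Pearson's r over the 45 gene pairs ran from -0.04 to 0.09, with medians of 0.00 to 0.01. Counts this sparse limit r, and these values describe cells of 1 library each.

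**Figure D4:**
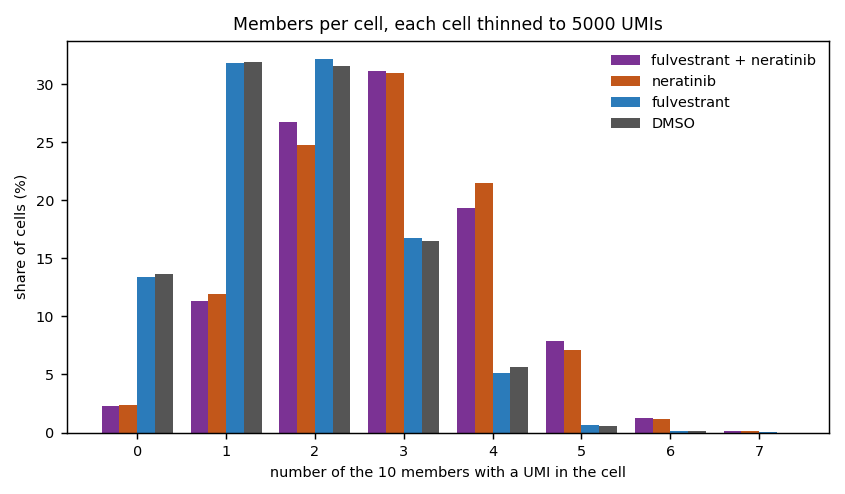
Share of cells (vertical axis, %) by the number of the 10 genes with at least 1 UMI in the cell (horizontal axis) after thinning to 5000 UMIs, 1 bar per library. The libraries with neratinib have their highest bar at 3 genes, 31.2% with fulvestrant + neratinib and 31.0% with neratinib. With fulvestrant and in DMSO 32.1% and 31.5% of cells show 2 genes, and 31.9% in each show 1.

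Lists of related genes were read against all measured genes, of which 7.03% were higher and 15.1% lower in neratinib against DMSO, with a median log2 ratio of -0.16, and 7.26% higher and 14.6% lower in fulvestrant + neratinib against fulvestrant, with a median of -0.15. Other genes known as FOXO targets, a list of 34 that holds none of the 10 above, were more often higher than lower with neratinib. This list, like the others, was also chosen with earlier results of these data known. In neratinib against DMSO 15 of its 31 measured genes were higher and 2 lower, with a median log2 ratio of 0.54, beside 7.03% higher and 15.1% lower of all genes. The other neratinib pair had 15 higher and 1 lower, with a median of 0.46. IRS2, the insulin receptor substrate, was at 16.5 CPM with neratinib, against 1.94 CPM in DMSO, a log2 ratio of 3.09 [2.87, 3.31]. TNFSF10, the death ligand TRAIL, was at 48.3 CPM, against 6.76 CPM, a log2 ratio of 2.84 [2.72, 2.96]. The autophagy receptor gene CALCOCO1 gave 2.38 [2.26, 2.49] and CREBRF, a regulator of the stress factor CREB3, gave 2.27 [2.18, 2.37]. The list was not uniform: CDKN1A, the p21 inhibitor of cyclin-dependent kinases, gave -1.04 and CDKN1B, the p27 inhibitor, 0.36. None of the 31 was past 1.5-fold in either fulvestrant pair, where few of all measured genes were. In fulvestrant against DMSO 0.0989% of all were higher and 0.569% lower, and in fulvestrant + neratinib against neratinib 0.0577% and 0.634%. The lists share some genes and are not separate from each other. MXI1, CDKN1B and RBL2 are also in the quiescence list below, and RICTOR is also among the FOXO regulators. TOB1 and BTG2 are in the paralog and quiescence lists, and SESN2 in those of paralogs and nutrient sensing. CREBBP and EP300 are both FOXO regulators and partners of CITED2 and BTG1.

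Of 11 measured paralogs of the 10 genes 1 was higher and 3 were lower in both neratinib pairs, with medians of -0.04 and -0.25, beside 7.03% higher and 15.1% lower of all measured genes in the first pair and 7.26% and 14.6% in the second. FOXO6, a FOXO factor outside the 10, went the other way from FOXO1, FOXO3 and FOXO4. It fell by 1.24 on the log2 scale in neratinib against DMSO, to 2.00 CPM against 4.73 CPM. In fulvestrant + neratinib against fulvestrant its log2 ratio was -1.69 [-1.97, -1.41], at 1.59 CPM against 5.13 CPM. In neratinib against DMSO other paralogs also moved. BTG3, a relative of BTG1, fell by 1.01 and FOXK2, another forkhead factor, by 0.80, while its relative FOXK1 rose by 0.66. SESN2, the remaining sestrin, gave -0.30, and CCNG1, the other cyclin G, gave 0.13.

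Of 24 measured regulators of FOXO proteins 3 were higher and 3 lower in neratinib against DMSO, with a median of -0.14, beside 7.03% higher, 15.1% lower and a median of -0.16 over all measured genes. RICTOR, a subunit of the mTORC2 kinase that phosphorylates AKT, rose by 0.73 [0.65, 0.81] and PIK3CA, a catalytic subunit of PI3K, by 0.69 [0.57, 0.80]. AKT1 fell by 0.68 and PIK3R1, the regulatory subunit of PI3K, by 0.76. PIK3R1 was at 8.56 and 13.5 CPM with fulvestrant + neratinib and neratinib, against 17.7 and 22.8 CPM with fulvestrant and DMSO, and so was also lower in fulvestrant + neratinib against neratinib, at -0.65 [-0.79, -0.52].

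In the nutrient sensing pathway of the sestrins, 1 of 18 measured genes was higher and 2 were lower in neratinib against DMSO, no larger a part than among all measured genes (7.03% higher and 15.1% lower). TSC1, an inhibitor of mTORC1 signalling, rose by 0.87 [0.78, 0.96] and SEH1L, a GATOR2 subunit, fell by 0.75. RRAGD, a Rag GTPase, was at 0.976 CPM with neratinib, against 1.47 CPM in DMSO. Of 17 measured genes of quiescence and of the DREAM repressor complex 3 were higher and 2 lower, with a median of 0.12, against the same shares. MXI1, an antagonist of MYC, rose by 1.19 [1.07, 1.31] and DYRK1B, a kinase linked to quiescence, by 1.18 [1.06, 1.29], while the E2F factors E2F5 and E2F4 fell by 1.36 and 0.82.

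A list of 11 genes held those whose products act with HBP1 or PDCD4, or whose transcription HBP1 is known to repress. Of 10 measured, 0 were higher and 3 lower in neratinib against DMSO, where 7.03% of all measured genes were higher and 15.1% lower, and 0 and 4 in fulvestrant + neratinib against fulvestrant, where 7.26% were higher and 14.6% lower. CCND1, which encodes cyclin D1 and is a known target of repression by HBP1, fell to 45.0 CPM with neratinib, against 314 CPM in DMSO, a log2 ratio of -2.80 [-2.85, -2.76]. With fulvestrant + neratinib it was at 30.6 CPM, against 245 CPM with fulvestrant, a log2 ratio of -3.00 [-3.06, -2.94]. The helicase EIF4A1, which PDCD4 inhibits, fell by 0.92 and its scaffold EIF4G1 by 0.69. Of 10 partners of CITED2 and BTG1 0 were higher and 1 lower in neratinib against DMSO, beside the same shares, and 1 higher and 2 lower in fulvestrant + neratinib against fulvestrant. The lower gene of the first pair was the transcription factor TFAP2A, which fell by 0.61. What part any of these genes has in the levels of another was not tested.

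**Figure D5:**
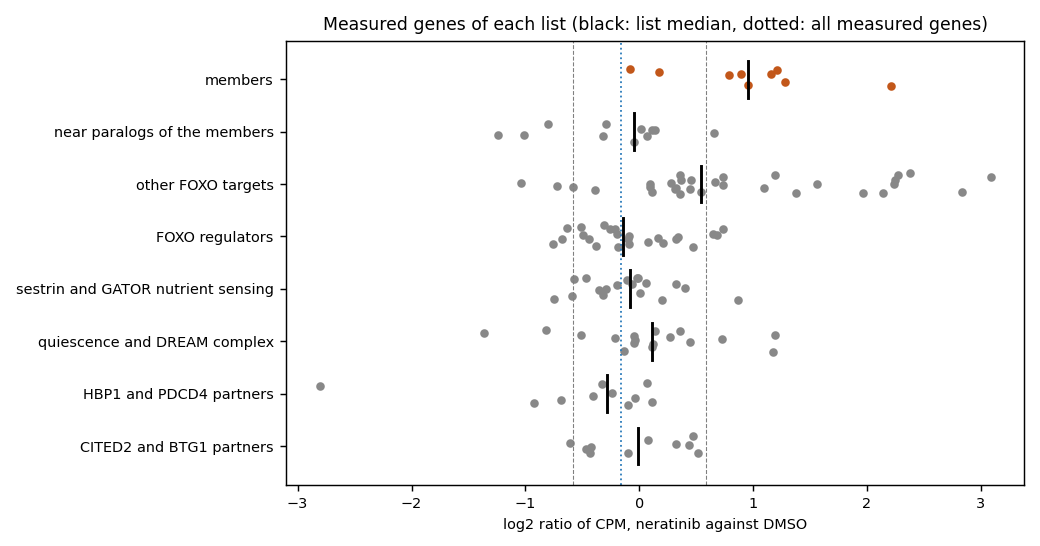
Log2 ratio of CPM in neratinib against DMSO of each measured gene of the 10 (members) and of 7 lists of related genes; black bars are list medians, the dotted line is the median of all measured genes at -0.16 and dashed lines mark 1.5-fold. The 10 genes and the other FOXO targets have medians of 0.95 and 0.54, and the other lists lie between -0.28 and 0.12.

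Over the 12 sums made by 4 libraries and 3 phases, the genes whose profile was most like the mean profile of the 10 were PNRC1, PAIP2, TOM1L2, GCC2, EFNA1 and FBXO32, among 4939 other genes with a mean of at least 20 CPM. Pearson's r with the mean profile was 0.99 for PNRC1, a nuclear receptor coactivator, 0.98 for PAIP2, TOM1L2, GCC2 and EFNA1, and 0.98 for FBXO32, an F-box protein of a ubiquitin ligase that is also in the list of other FOXO targets. The 12 points share 4 libraries and are not independent. In neratinib against DMSO these 6 genes had log2 ratios between 0.57 and 1.97. Of the 10 genes themselves, PDCD4 and SESN1 were the least like the mean profile, with r of 0.27 and 0.23, and the others had r between 0.88 and 0.97. Each of the 10 is part of that mean, and most of them rose with neratinib. These r values were therefore partly set in advance and are no separate result.

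Of the 10 genes, 8 have an overlapping gene in the count matrix by the GENCODE v29 annotation, with 10 such partners, 9 on the opposite strand and 1 on the same strand. The strand setting of the counting is not named in the sources used here, so reads of these partners may not be told apart from those of the gene. COG5, which lies opposite HBP1, was at 12.03 and 12.14 CPM with fulvestrant + neratinib and neratinib, against 13.9 and 13.4 CPM with fulvestrant and DMSO, and did not share the pattern of HBP1. AC025164.1, opposite BTG1, was at 0.999 and 1.13 CPM, against 0.311 and 0.263 CPM, and so had the direction of BTG1 at a small part of its count. PDCD4-AS1, opposite PDCD4, was at 2.13 and 2.68 CPM, against 2.06 and 2.36 CPM.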

How the data were processed

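The authors deposited 1 merged matrix of whole-number UMI counts for 33538 genes and 27179520 unfiltered barcodes, made with Cell Ranger 3.1.0 and hg19 per the submitters' processing notes; per the labels' protocols the libraries were 10x Genomics 3′ v3. The sources used here do not say whether depth was evened on merging. Library suffixes of the barcodes were assigned to samples by the leading number of each title, with no second label to check it. Deposited columns not used numbered 0.

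Cells were barcodes with at least 5000 UMIs and 500 genes, without a mitochondrial ceiling or a doublet caller; leaving out the 5% of cells with most UMIs stood in for doublets. UMIs were summed per library and scaled to CPM. Ratios carry exact conditional binomial 95% intervals, CPM exact Poisson ones and shares Clopper-Pearson ones (scipy 1.17.1), for counting error only. Phases were called with scanpy 1.11.5 on all libraries together; cells were thinned with seed 1. The ratio script was checked on simulated counts. The counts of genes in the text are over those with mean CPM of at least 1, and over all 10 where said. Genes and lists were chosen with earlier results of these data known. Named list genes are the 4 per list with the greatest ratio in neratinib against DMSO that passed 1.5-fold there and kept their sign in the other neratinib pair; CDKN1A, CDKN1B, SESN2 and CCNG1 were added after their values were seen. Promoter sequences are from RefSeq, GRCh38.p14.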

Additional observations from a re-analysis of the deposited data

Results flagged for a closer look

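CCNG2 and PDCD4 differed between libraries in the direction of their change over the cell cycle, with each neratinib library on one side of 0 and each library without it on the other. For CCNG2 the log2 ratio of G2M against G1 cells was 0.51 with fulvestrant + neratinib and 0.46 with neratinib, against -0.18 with fulvestrant and -0.32 in DMSO. For PDCD4 it was 0.15 with fulvestrant + neratinib and 0.26 with neratinib, against -0.10 with fulvestrant and -0.11 in DMSO. With 1 library per group the difference itself was not tested. The share of cells near a phase boundary was 9.60% with fulvestrant + neratinib, 8.47% with neratinib, 8.09% with fulvestrant and 7.23% in DMSO. It was thus higher with either drug than without it. Leaving out the cells near a boundary, an alternative chosen after seeing the data, gave PDCD4 0.13 and 0.26, against -0.14 and -0.12.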

How the results depend on the processing

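No paired analysis was possible because each group is 1 library. Of 600 recomputed log2 ratios of the 10 genes, 417 stayed within counting error of the reported value, 182 moved further with the same sign or without a call, and 1 called ratio changed sign: FOXO4 in fulvestrant against DMSO, at -0.50 with cells thinned to 5000 UMIs. Of 150 counts of genes called, 144 stayed within 1.5 times. Most of these repeat a reported count of 0, so that staying the same means only staying at 0. Those are all counts of lower genes, and the counts of higher genes in both fulvestrant pairs. In fulvestrant + neratinib against neratinib 1 gene was higher in G2M cells alone, where 0.744% of all measured genes were higher. At a fold minimum of 5/4 that pair had 3 higher and 1 lower. In fulvestrant against DMSO 1 gene, FOXO4, was higher with the total taken without mitochondrial genes and with no minimum CPM. At a 2-fold minimum 4 genes were higher in neratinib against DMSO. At fold minimums of 5/4 and 2, and for the settings that added FOXO4, the share over all measured genes was not computed. The mean number of the 10 genes per cell was 4.15 with fulvestrant + neratinib, 4.16 with neratinib, 2.84 with fulvestrant and 2.77 in DMSO at 10000 UMIs, and 5.41, 5.35, 4.33 and 4.19 without thinning. The mitochondrial bands and the cells away from phase boundaries were alternatives chosen after seeing the data. Depth limits FOXO1, FOXO4 and SESN3, whose intervals are the widest.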
